A study of Mus musculus with 6 samples.

Results

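The genes described here encode the receptors of the ERBB family and the ligands of the EGF family, measured in spheroids of the mouse colorectal carcinoma line CMT93. They were chosen by name, as the rows of the count table with the symbols Egfr, Erbb2, Erbb3, Areg, Ereg, Btc, Hbegf, Tgfa, Epgn or Nrg1. Of these 10 symbols, 8 were found among 23399 genes, 3 receptors and 5 ligands; Ereg and Nrg1 were not analysed here. The spheroid cultures were grown on soft agar with a small amount of Matrigel. The 3 palmitate samples received 200 µM of sodium palmitate, a saturated fatty acid, dissolved in ethanol and bound to bovine serum albumin, and the 3 vehicle samples received ethanol and albumin alone. All 6 were wild type, and each treatment ran for 1 week in monolayer and a further 5 days in spheroids before RNA was taken. All came from 1 cell line. Within a group the samples carry replicate numbers, and nothing says whether each was a culture of its own. The p-values therefore describe library-to-library spread, part or all of which may be technical.

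ERBB receptors are tyrosine kinases of the cell surface that pair with one another when a ligand binds and pass the signal to the RAS-ERK and PI3K-AKT routes. Their ligands are made as membrane-bound precursors and are released by cell-surface proteases. In the gut epithelium this system drives growth and repair, and it is a drug target in colorectal cancer.

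Poly(A) RNA libraries held 22516639 to 22852940 counts with palmitate and 18898896 to 21851987 with vehicle, so every palmitate library was the deeper. Levels are given as CPM, read counts scaled to library size, after TMM normalisation, a scaling that sets aside the genes that differ most between libraries. Calls rest on an adjusted p under 0.05 over all 14987 tested genes. Of 10 colon epithelium markers, 9 had rows, and their summed level was 6659 to 6757 CPM with palmitate and 7280 to 7355 CPM with vehicle, with no overlap. Of the 8 tested, 2 rose (Krt19 and Cdx2), 3 fell (Krt18, Krt8 and Cdh1) and 3 did not pass, among them Epcam. Krt18, an epithelial keratin gene, was the one called past 1.2-fold, with 1079 ± 7.71 CPM with palmitate and 1445 ± 21.4 CPM with vehicle (SD, n = 3 libraries each; log2 fold change -0.42). Cdx2 stayed under 3 CPM and Krt20 under 1 CPM in every library. Of the markers of other cell types, the summed level of 4 of 7 fibroblast genes was 0.976 to 1.10 CPM with palmitate and 1.339 to 2.05 CPM with vehicle. Col1a1, the 1 tested, had 16, 15 and 17 counts with palmitate, against 26, 37 and 28 with vehicle (log2 fold change -1.03, adjusted p = 0.000267, edgeR). It was called past 1.2-fold (adjusted p = 0.00327, glmTreat). For 4 of 6 leukocyte genes the summed level was 9.76 to 10.8 CPM with palmitate and 7.42 to 9.16 CPM with vehicle. Most of it was the macrophage gene Cd68, which rose by 0.44 on the log2 scale (adjusted p = 1.90e-05, edgeR). Ptprc, the pan-leukocyte marker, fell to 0.266 ± 0.0452 CPM with palmitate, against 0.836 ± 0.138 CPM with vehicle (SD, n = 3 libraries each; adjusted p = 6.19e-05, edgeR). For all 4 endothelial genes the summed level was 2.00 to 2.55 CPM with palmitate and 3.23 to 3.55 CPM with vehicle. Of the 2 tested, Cdh5 fell by 0.60 on the log2 scale (adjusted p = 0.00599, edgeR). Cdh5 was not called past 1.2-fold (adjusted p = 0.0720, glmTreat), and Tek did not pass (adjusted p = 0.0782, edgeR). None of the markers of other cell types with a row was at 0 in all libraries, and their part in the results was not tested. The samples were of 1 cell line, so these markers are not read here as numbers of other cells. Ptprc had only 6, 7 and 5 counts with palmitate, against 18, 15 and 19 with vehicle. In bulk RNA, fewer cells that express a gene and less RNA per cell cannot be told apart.

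Spheroids grown with palmitate carried slightly more message for the receptors Egfr and Erbb3 and for the ligand Btc, and slightly less for the ligand Areg. Each of these differences was under 1.2-fold in its estimate. Erbb2, Hbegf, Tgfa and Epgn did not pass the test. All 8 genes passed the filter on low counts. Of them, 4 were called (edgeR quasi-likelihood test, two-sided), against 52.8% of all tested genes, so the share called was near the background. The split was 3 higher, where 27.4% of tested genes were higher, and 1 lower, where 25.4% were lower. The median log2 fold change of the 8 was 0.04, against 0.00068 over all tested genes. Against a minimum change of 1.2-fold, glmTreat called 0 of the 8, with 0 at an unadjusted p under 0.05. It called 15.2% of all tested genes. With only 8 genes, 0 called is not far from that share. The groups did not overlap in 4 of the 8, which compares with 57.8% of all tested genes.

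**Figure D1:**
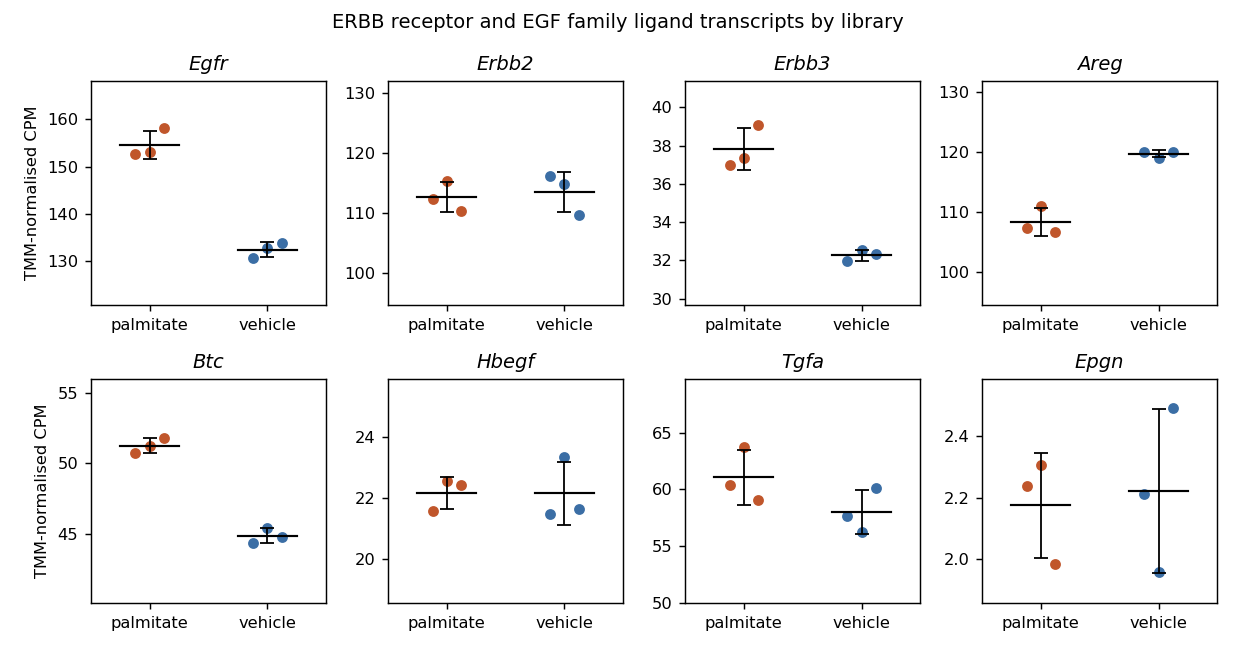
TMM-normalised CPM of each receptor and ligand (vertical axes, which do not start at 0) in the 3 palmitate and 3 vehicle libraries; points are libraries, wide bars are means and whiskers are SD. The groups separate for Egfr, Erbb3, Areg and Btc and overlap for Erbb2, Hbegf, Tgfa and Epgn.

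Among the receptors, Egfr (ENSMUSG00000020122.17), which binds EGF, amphiregulin and their relatives, rose. It had 153, 153 and 158 CPM in the palmitate libraries, against 131, 133 and 134 CPM in the vehicle libraries. Every palmitate library lay above every vehicle library. The means were 155 ± 2.99 CPM with palmitate and 132 ± 1.60 CPM with vehicle (SD, n = 3 libraries each), a log2 fold change of 0.22 ± 0.0238 (SE) with an adjusted p of 1.12e-13 (edgeR). Its fold was 1.17, with a 95% interval of 1.13 to 1.21.

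Erbb3 (ENSMUSG00000018166.9), a neuregulin receptor with a weak kinase that signals through its partners and recruits PI3K, rose by a like amount from a lower CPM. It had 37.0, 37.4 and 39.1 CPM in the palmitate libraries, against 32.0, 32.5 and 32.3 CPM in the vehicle libraries. The groups did not overlap. The log2 fold change was 0.23 (SE 0.0442, adjusted p = 7.21e-06, edgeR) and the fold was 1.17, with a 95% interval of 1.10 to 1.24.

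Erbb2 (ENSMUSG00000062312.6), which has no ligand of its own and is the usual partner of the other receptors, did not pass the test. It had 112, 115 and 110 CPM in the palmitate libraries, against 116, 115 and 110 CPM in the vehicle libraries. The groups overlapped almost wholly. Its log2 fold change was -0.0097 ± 0.0268 (SE; adjusted p = 0.788, edgeR), and the 95% interval of the fold ran from 0.957 to 1.03. Within a library, the log2 ratio of Egfr to Erbb2 CPM was 0.44, 0.41 and 0.52 with palmitate, against 0.17, 0.21 and 0.29 with vehicle. The ratio was thus higher in every palmitate library, by 0.24 on average. This pair, and the pair of Btc and Areg below, were chosen after their values were seen. An exact two-sided test gave p = 0.1 for each ratio. That is the smallest p this test can give with so few libraries, so it cannot decide whether either ratio differed. Both ratios are therefore given as descriptions.

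**Figure D2:**
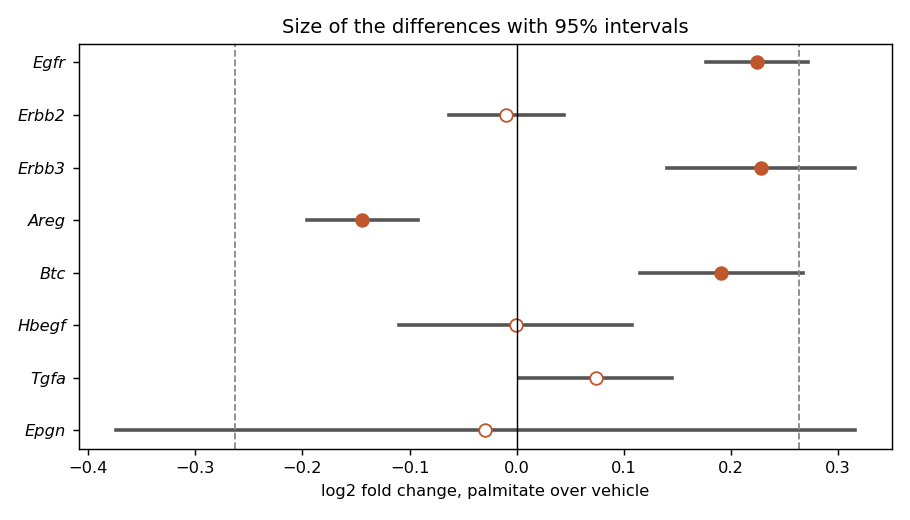
Log2 fold change of palmitate over vehicle (horizontal axis) for each receptor and ligand; points are edgeR estimates, filled where the adjusted p was under 0.05, lines are 95% intervals and dashed lines mark a 1.2-fold change either way. All 8 estimates lie between the dashed lines, with Epgn the least precise.

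Of the ligands, Areg, which encodes amphiregulin, an EGFR ligand of repairing epithelium, fell. Areg (ENSMUSG00000029378.6) had 107, 111 and 107 CPM in the palmitate libraries, against 120, 119 and 120 CPM in the vehicle libraries. All 3 palmitate libraries lay below all 3 vehicle libraries. Its means were 108 ± 2.35 CPM with palmitate and 120 ± 0.624 CPM with vehicle (SD, n = 3 libraries each), a log2 fold change of -0.14 ± 0.0262 (SE) with an adjusted p of 1.95e-06 (edgeR). The fold was 0.905, with a 95% interval of 0.873 to 0.938.

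Btc, which encodes betacellulin, a ligand of both EGFR and ERBB4, rose. Btc (ENSMUSG00000082361.7) had 50.7, 51.2 and 51.8 CPM in the palmitate libraries, against 44.4, 45.4 and 44.8 CPM in the vehicle libraries. Its replicates were close together and the groups did not overlap. The log2 fold change was 0.19 (SE 0.0382, adjusted p = 1.31e-05, edgeR) and the fold was 1.14. Its 95% interval ran from 0.12 to 0.27 on the log2 scale.

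Areg and Btc are neighbours. In the RefSeq annotation of GRCm38.p6, an earlier build than the one used for the counts, Epgn, Ereg, Areg and Btc follow one another on chromosome 5 with 0 other protein-coding genes between them. Within a library, the log2 ratio of Btc to Areg CPM was -1.08, -1.12 and -1.04 with palmitate, against -1.44, -1.39 and -1.42 with vehicle. It was higher in every palmitate library, by 0.34 on average. The third neighbour measured, Epgn, encodes epigen, an EGFR ligand of low affinity. Epgn (ENSMUSG00000035020.12) had only 50, 52 and 45 counts in the palmitate libraries, against 42, 43 and 54 counts in the vehicle libraries. Its groups overlapped, with a log2 fold change of -0.03 ± 0.174 (SE) and an adjusted p of 0.903 (edgeR). The 95% interval of its fold ran from 0.772 to 1.24, so at this depth neither a fall nor a rise within that range can be set aside.

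The bases before the start of 3 of the genes called are shown, since 2 of them are neighbours whose messages moved in opposite directions and Egfr is their shared receptor. Each is the 250 bases upstream of the RefSeq start in GRCm38.p6, written from 5′ to 3′ on the strand of the gene, with capitals for matches to the motifs searched. They lie at chr5:91139349-91139598 on the plus strand for Areg, chr5:91402995-91403244 on the minus strand for Btc and chr11:16751953-16752202 on the plus strand for Egfr.
Areg: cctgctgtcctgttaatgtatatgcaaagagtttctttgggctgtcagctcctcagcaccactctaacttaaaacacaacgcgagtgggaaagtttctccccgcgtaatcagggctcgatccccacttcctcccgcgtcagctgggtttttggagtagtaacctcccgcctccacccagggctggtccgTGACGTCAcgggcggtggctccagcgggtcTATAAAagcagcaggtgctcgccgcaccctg
Btc: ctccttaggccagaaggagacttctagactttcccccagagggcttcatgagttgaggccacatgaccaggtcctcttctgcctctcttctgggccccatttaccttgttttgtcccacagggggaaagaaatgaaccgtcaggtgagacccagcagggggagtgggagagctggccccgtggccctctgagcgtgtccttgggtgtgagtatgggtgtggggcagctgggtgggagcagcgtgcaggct
Egfr: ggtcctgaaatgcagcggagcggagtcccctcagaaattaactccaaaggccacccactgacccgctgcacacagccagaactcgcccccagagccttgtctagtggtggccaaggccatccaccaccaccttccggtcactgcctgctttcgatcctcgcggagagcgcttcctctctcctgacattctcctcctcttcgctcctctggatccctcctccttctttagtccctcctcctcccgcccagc
The motifs searched on both strands were the cAMP response element TGACGTCA, the AP-1 site TGANTCA, the PPAR response element (AGGTCA and AGGTCA in tandem with any 1 base between) and the TATA box TATAAA. No searched motif is contained in another. The Areg window held the cAMP response element, 61 to 54 bases before the start, and a TATA box, 31 to 26 bases before it. The same element was present in 1.55% and the TATA box in 12.4% of all 32851 promoter windows of this length. The Btc and Egfr windows matched none of these letters. RefSeq windows were at hand for 6 of the 10 genes, and neither the AP-1 site nor the PPAR element was matched in any of them, where 6.75% and 0.0335% of all windows held them. The Epgn window had a TATA box only, 86 to 81 bases before the start, and those of Tgfa and Erbb2 had no match.

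Tgfa and Hbegf, both EGFR ligands, did not pass the test. Tgfa (ENSMUSG00000029999.15), which encodes transforming growth factor alpha, had 60.4, 63.7 and 59.1 CPM in the palmitate libraries, against 57.7, 56.2 and 60.1 CPM in the vehicle libraries. Only palmitate replicate 3 and vehicle replicate 3 crossed. The log2 fold change was 0.07 (SE 0.0359, adjusted p = 0.0773, edgeR), and Tgfa was called at 0.10 on the log2 scale without palmitate replicate 3 (adjusted p = 0.0368) or without vehicle replicate 3 (adjusted p = 0.0306). Over all 12 alternatives its log2 fold change ran from 0.04 to 0.10. Hbegf (ENSMUSG00000024486.7), the heparin-binding ligand of EGFR and ERBB4, had 21.6, 22.5 and 22.4 CPM in the palmitate libraries, against 21.5, 23.3 and 21.6 CPM in the vehicle libraries. The groups overlapped throughout, with a fold of 0.999 and a 95% interval of 0.927 to 1.08 (adjusted p = 0.992, edgeR).

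In the authors' deposited table, which comes from DESeq2, the same 4 genes had a q-value under 0.05. The authors' deposited table gives log2 fold changes of 0.23 for Egfr (q = 9.14e-11), 0.23 for Erbb3 (q = 0.00125), 0.19 for Btc (q = 0.00148) and -0.14 for Areg (q = 0.000551). For Tgfa the authors' deposited table gives 0.08 (q = 0.267).

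To set the genes beside one another, CPM was divided by the length of the longest transcript of each gene in GENCODE M21. On this scale of CPM per kb, Areg was the most abundant of the 8, at 89.2 ± 1.94 with palmitate and 98.6 ± 0.514 with vehicle (SD, n = 3 libraries each). Next came Erbb2, with a level of 22.5 ± 0.508 CPM per kb with palmitate and 22.7 ± 0.674 with vehicle. Egfr had 15.1 ± 0.293 CPM per kb with palmitate and 13.0 ± 0.156 with vehicle. The spread of Egfr overlapped that of Tgfa, at 12.8 ± 0.437 CPM per kb, in the vehicle libraries, but not in the palmitate libraries, where Tgfa had 13.5 ± 0.528. Btc came next with 12.7 ± 0.130 CPM per kb with palmitate and 11.1 ± 0.132 with vehicle. Hbegf had 7.67 ± 0.183 CPM per kb with palmitate and 7.67 ± 0.355 with vehicle, and Erbb3 had 6.28 ± 0.183 with palmitate and 5.36 ± 0.0470 with vehicle. Epgn was the lowest, at 1.24 ± 0.0974 CPM per kb with palmitate and 1.26 ± 0.152 with vehicle. The order was the same in both groups. It depends on the lengths taken. With median transcript lengths Egfr stood first, at 216 CPM per kb with palmitate and 185 with vehicle, ahead of Areg. That place rests on its length, since the median of its 5 transcripts was 716 bases and the longest was 10208 bases. Tgfa then passed Erbb2 in both groups, with 41.2 CPM per kb with palmitate and 39.2 with vehicle, where Erbb2 had 25.4 with palmitate and 25.6 with vehicle. Btc passed Erbb2 with palmitate (26.7 CPM per kb) but not with vehicle (23.4 CPM per kb).

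**Figure D3:**
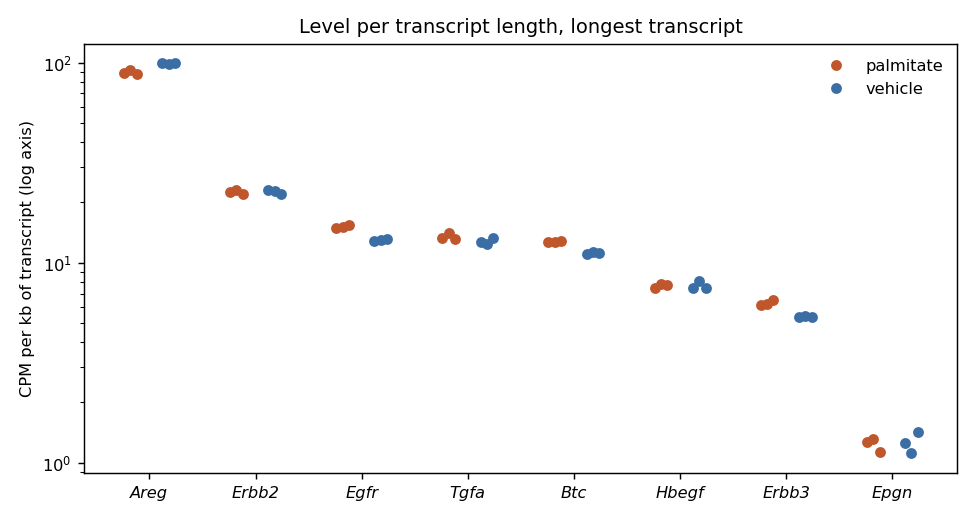
Level of each gene in CPM per kb of its longest transcript (vertical log axis) in the 3 palmitate and 3 vehicle libraries, one point per library, in order of the level with palmitate. Areg is the highest at 89.2 with palmitate and 98.6 with vehicle, and Epgn the lowest at 1.24 with palmitate and 1.26 with vehicle.

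Areg made up 71.8, 71.8 and 71.6% of the summed CPM per kb of the 5 ligands in the palmitate libraries, against 75.3, 74.9 and 74.8% in the vehicle libraries. The share was lower in every palmitate library. Btc held 10.2 ± 0.252% of this sum with palmitate and 8.48 ± 0.127% with vehicle (SD, n = 3 libraries each). Summed over the 3 receptors the level was 43.9 ± 0.366 CPM per kb with palmitate and 41.0 ± 0.533 with vehicle, and over the 5 ligands it was 123, 127 and 123 in the palmitate libraries, against 131, 131 and 132 in the vehicle libraries. The ratio of the ligand sum to the receptor sum was 2.83, 2.88 and 2.79 with palmitate, against 3.18, 3.17 and 3.28 with vehicle, all for the ligands analysed here. With median transcript lengths this ratio was 0.679 ± 0.0217 with palmitate and 0.798 ± 0.00716 with vehicle, so its size rests on the lengths and its direction did not change. Median lengths also gave Areg 53.1% of the ligand sum with palmitate and 57.3% with vehicle, and Btc 15.9% with palmitate and 13.6% with vehicle. The receptor sum was then 248 CPM per kb with palmitate and 216 with vehicle, with Egfr 87.2% and 85.6% of it. The ligand sum then overlapped between groups, at 166, 172 and 166 with palmitate, against 172, 171 and 174 with vehicle. Ligand CPM summed without division by length also overlapped, at 242 to 251 with palmitate and 246 to 249 with vehicle. These sums are descriptions without a test.

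Genes were ranked by how near their pattern over the 6 libraries lay to that of Erbb3, by root mean square distance of centred log2 CPM. Among 11460 named genes of at least 1 CPM, the nearest was Egfr (distance 0.0108). Ralgapa1, which encodes a subunit of a RAL GTPase activator, and Crnkl1, a splicing factor gene, followed at 0.0137 and 0.0138. Ralgapa1 had a mean of 136 CPM with palmitate and 115 CPM with vehicle, and Crnkl1 one of 58.2 CPM with palmitate and 49.0 CPM with vehicle. For Areg the nearest were Furin, which encodes a protease that cuts proproteins (0.00901), Qrsl1, needed to charge mitochondrial transfer RNA with glutamine (0.0098), and Glb1, the lysosomal beta-galactosidase gene (0.0103). Furin had 191 ± 2.54 CPM with palmitate and 212 ± 0.572 CPM with vehicle (SD, n = 3 libraries each). The 6 libraries include both groups, so the measure takes in the difference between the groups as well as the spread within them. No distance was tested, so a near place among so many ranked genes is a description only.

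Of the other family genes listed, Egf and Nrg4 had rows. Nrg4, which encodes an ERBB4 ligand, fell to 10.1 ± 0.561 CPM with palmitate, against 12.6 ± 0.551 CPM with vehicle (SD, n = 3 libraries each). In edgeR its log2 fold change was -0.32, with an SE of 0.0759 and an adjusted p of 0.000218. Egf was low, with 44, 32 and 48 counts in the palmitate libraries and 31, 52 and 55 counts in the vehicle libraries, and did not pass the test (adjusted p = 0.240, edgeR). Erbb4, Nrg2 and Nrg3 were not analysed here.

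Genes of ligand shedding and trafficking, a list that also holds Timp3, an inhibitor of the sheddases, moved both ways. Of 11 tested, 3 rose (Adam9, Frmd8 and Timp3), 4 fell and 4 did not pass, with a median log2 fold change of -0.06. Timp3 rose by 0.12 on the log2 scale (adjusted p = 0.00538, edgeR). Adam9, a membrane metalloprotease gene, rose to 325 ± 4.80 CPM with palmitate, against 275 ± 6.64 CPM with vehicle (SD, n = 3 libraries each; log2 fold change 0.24, adjusted p = 2.90e-19, edgeR). Frmd8, whose product steadies the ADAM17 sheddase complex at the cell surface, rose by 0.20 on the log2 scale (adjusted p = 1.13e-07, edgeR). Adam8 fell, to 23.1 ± 0.536 CPM with palmitate against 32.0 ± 1.56 CPM with vehicle, and was the one gene of the list called past 1.2-fold (adjusted p = 9.83e-05, glmTreat). The rhomboid protease gene Rhbdl2 fell by 0.25 on the log2 scale (adjusted p = 0.000663, edgeR). Adam17 and Adam10, the main sheddase genes for these ligands, were chosen for mention after their values were seen. Adam17 had 121 ± 4.17 CPM with palmitate and 125 ± 1.17 CPM with vehicle and did not pass (adjusted p = 0.0789, edgeR), while Adam10 fell by 0.06 on the log2 scale (adjusted p = 0.001, edgeR).

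Genes that restrain the receptors held the greatest fall of the pathway among called genes. Of 15 tested, 6 rose, 4 fell and 5 did not pass, with a median log2 fold change of 0.05. Past 1.2-fold, 3 of the 15 were called, where 15.2% of all tested genes were. Lrig1, a membrane protein of intestinal stem cells that promotes the breakdown of ERBB receptors, had 136, 135 and 136 CPM in the palmitate libraries, against 215, 214 and 217 CPM in the vehicle libraries. The groups were far apart beside a spread of at most 1.24 CPM (SD), with a log2 fold change of -0.66 ± 0.0219 (SE) and an adjusted p of 3.93e-44 (edgeR). Errfi1, which encodes the EGFR kinase inhibitor MIG6, fell to 67.7 ± 1.40 CPM with palmitate, against 85.3 ± 1.89 CPM with vehicle (SD, n = 3 libraries each; log2 fold change -0.34, adjusted p = 6.47e-16, edgeR). Its call past 1.2-fold (adjusted p = 0.0219, glmTreat) was lost without palmitate replicate 1 (0.0782) or 3 (0.0837), without vehicle replicate 3 (0.107), with no count filter (0.0604) and after thinning (0.0923). Socs5, a suppressor of cytokine and EGF receptor signalling, fell by 0.27 on the log2 scale (adjusted p = 2.85e-09, edgeR). Sh3kbp1, whose product links CBL-bound EGFR to endocytosis, rose to 96.1 ± 0.989 CPM with palmitate, against 69.0 ± 1.53 CPM with vehicle (log2 fold change 0.48, adjusted p = 7.89e-25, edgeR).

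Downstream of the receptors, 11 of 26 tested adaptor and kinase genes rose, 7 fell and 8 did not pass the test, with a median log2 fold change of 0.03. Stat3, a transcription factor that ERBB and cytokine receptors activate, rose to 303 ± 0.574 CPM with palmitate, against 227 ± 5.17 CPM with vehicle (SD, n = 3 libraries each; log2 fold change 0.41, adjusted p = 5.27e-33, edgeR). It was the one gene of this list called past 1.2-fold (adjusted p = 6.11e-11, glmTreat). Akt1, a kinase of the PI3K route, rose by 0.21 on the log2 scale (adjusted p = 3.86e-17, edgeR). The kinase genes Src and Mapk3, the second of which encodes ERK1, had log2 fold changes of -0.22 (adjusted p = 4.92e-14, edgeR) and -0.17 (adjusted p = 8.91e-10, edgeR).

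Among transcripts that ERK signalling raises, 7 of 17 tested rose, 4 fell and 6 did not pass the test, with a median log2 fold change of 0.03. Spry1, a feedback inhibitor of receptor tyrosine kinases, fell to 10.3 ± 0.372 CPM with palmitate, against 15.5 ± 1.49 CPM with vehicle (SD, n = 3 libraries each). In edgeR its log2 fold change was -0.59, with an SE of 0.0737 and an adjusted p of 6.16e-11. Spry1 was also called past 1.2-fold (adjusted p = 3.49e-05, glmTreat). Spred1 and Spred2, relatives that restrain RAF, rose by 0.26 (adjusted p = 1.12e-12, edgeR) and 0.25 (adjusted p = 5.65e-10, edgeR) on the log2 scale. The cyclin gene Ccnd1 rose to 715 ± 6.05 CPM with palmitate, against 630 ± 11.5 CPM with vehicle (log2 fold change 0.18, adjusted p = 2.33e-17, edgeR). The shares called in these 4 lists stand beside 52.8% of all tested genes, with 27.4% higher and 25.4% lower. The shares called past 1.2-fold stand beside 15.2% of all tested genes. No list was tested as a whole.

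**Figure D4:**
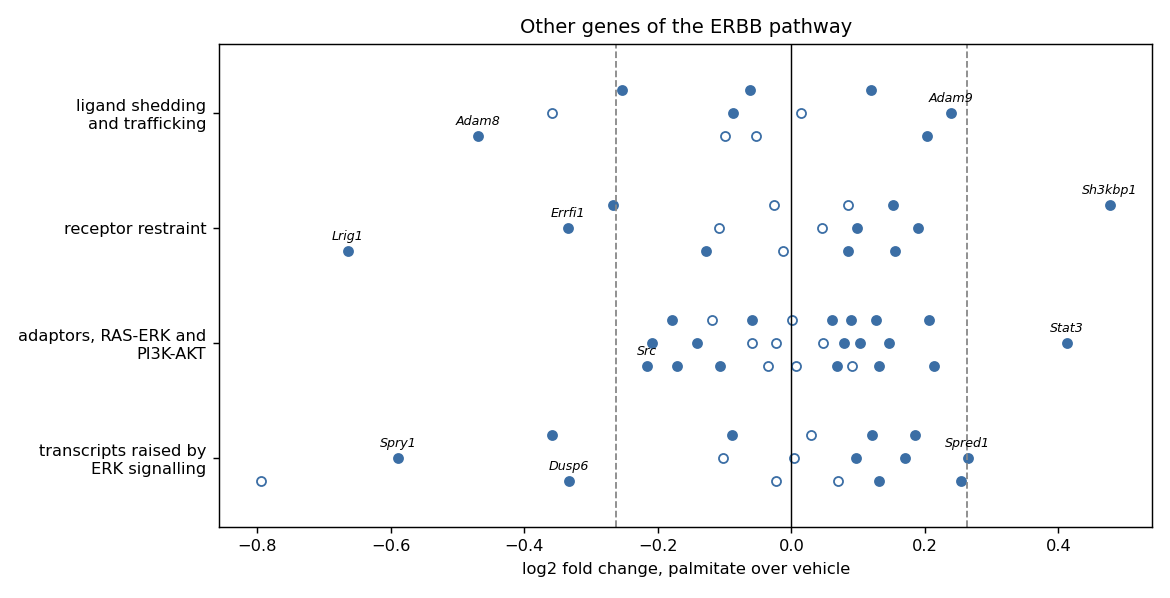
Log2 fold change of palmitate over vehicle (horizontal axis) for every tested gene of 4 pathway lists (rows; height within a row only separates points); filled points had an adjusted p under 0.05 and dashed lines mark 1.2-fold. In each list filled points lie on both sides of 0, from -0.66 for Lrig1 to 0.48 for Sh3kbp1.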

How the data were processed

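The 6 libraries were prepared from poly(A) RNA by a strand-marking dUTP method, per the labels' protocols. The submitters' processing notes name STAR 2.6.1, HTSeq, DESeq2 1.34.0, FastQC 0.11.8 and the mouse build GRCm39. The strand setting used in counting is not given in the sources, so reads of antisense partners cannot be told apart. The deposited table holds raw counts per gene. The authors' deposited gene table gives log2 fold changes and q-values from DESeq2, per its column description, which does not mention shrinkage.

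The test on counts was run in R 4.3.3 with edgeR 4.0.16 (TMM, filterByExpr with a minimum count of 10, robust glmQLFit, glmQLFTest, glmTreat against 1.2-fold, two-sided), with Benjamini-Hochberg adjustment over all 14987 tested genes. Standard errors are the log2 fold change over the root of F. Precision follows depth: relative counting error is greatest for Epgn. The edgeR step was tested on simulated data. Alternatives were DESeq2 1.42.0 and its size factors, limma-voom (limma 3.58.1), no count filter, the replicate number as a block, leaving out each library, and thinning. Pattern likeness used log2 CPM with a prior count of 2. Libraries of a group differed slightly beyond counting noise in every pair (chi-square over degrees of freedom 1.20 to 1.38), so none was taken for a copy. The common spread between replicates in edgeR was 1.28% (biological coefficient of variation). So small a spread does not settle whether each replicate was a culture of its own. Lengths came from GENCODE M21, and promoter sequences from RefSeq (GRCm38.p6). Members and lists were chosen with earlier results of these data known. The rule for named genes was all members, up to 4 called genes of each pathway list by smallest p, and the 3 genes nearest in pattern to the called member with the greatest rise and to that with the greatest fall. Figures were drawn with matplotlib 3.10.9.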

Additional observations from a re-analysis of the deposited data

How the results depend on the processing

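The number of genes called ranged from 5692 (DESeq2) to 8023 (no count filter) over 12 alternatives, against 7915. Of the 8 receptor and ligand genes, 4 were called under each alternative other than the removal of palmitate replicate 3 or vehicle replicate 3, where Tgfa made 5. The log2 fold changes of the 4 called genes kept their direction and call in all 12, at 0.21 to 0.24 for Egfr, 0.21 to 0.25 for Erbb3, -0.16 to -0.13 for Areg and 0.18 to 0.20 for Btc. None of the 8 was called past 1.2-fold in the 10 alternatives where glmTreat was run, and 2084 to 2343 of all genes were. Values near 0 changed sign without being called. Hbegf stood at 0.0085 with no count filter, 0.0033 with DESeq2, 0.000985 with the replicate block and 0.0095 after thinning to the smallest library. With one library left out, Hbegf ranged from -0.0208 to 0.0384, Erbb2 from -0.0355 to 0.00777 and Epgn from -0.12 to 0.0663. Of 30 genes named by rule, 25 kept direction and call throughout, and beside those above only Qrsl1 lost its call, with DESeq2 (adjusted p = 0.136) and without palmitate replicate 3 (adjusted p = 0.0596). With median in place of longest transcript lengths, levels with palmitate were 216 (Egfr), 25.4 (Erbb2), 26.7 (Btc), 9.34 (Hbegf), 41.2 (Tgfa) and 1.70 (Epgn) CPM per kb. Same-numbered libraries of the 2 groups deviated from their group means with correlations of 0.0128, -0.0152 and 0.00651 over 10845 genes, so the numbers were not taken to pair them; the replicate block gave 7933 calls, 4 of them among the 8 genes, and not every library correlated best with its own number. Among receptor and ligand genes depth limits Epgn most (SE 0.174), and among the pathway genes Spry4 had an SE of 0.389 and Adam12 one of 0.194.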

Other observations

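Inhibitors of the ERK route beyond those named by rule moved in both directions; all genes in this paragraph were chosen after their values were seen. Dusp6, a phosphatase that acts on ERK, had 25.5, 25.2 and 24.0 CPM in the palmitate libraries, against 29.0, 31.4 and 33.5 CPM in the vehicle libraries (log2 fold change -0.33, SE 0.0505, adjusted p = 2.22e-08, edgeR). Spry2, a relative of Spry1, had 8.05, 9.58 and 7.88 CPM in the palmitate libraries, against 10.3, 10.6 and 11.8 CPM in the vehicle libraries (log2 fold change -0.36, SE 0.0845, adjusted p = 0.000201, edgeR). Dusp4, another phosphatase of this family, rose to 138 ± 1.81 CPM with palmitate, against 123 ± 2.80 CPM with vehicle (SD, n = 3 libraries each; log2 fold change 0.17, adjusted p = 7.66e-09, edgeR). Dusp6 (adjusted p = 0.137, glmTreat), Spry2 (adjusted p = 0.217, glmTreat) and Dusp4 were not called past 1.2-fold. Their relatives Dusp5 (adjusted p = 0.839, edgeR) and Spry4 (adjusted p = 0.0789, edgeR) did not pass. Spry4 had only 3, 11 and 7 counts with palmitate, against 10, 15 and 9 with vehicle. Of the early-response genes Egr1, Fos, Myc, Fosl1 and Ier3 in the list of ERK-raised transcripts, Egr1 rose by 0.12 (adjusted p = 0.0119, edgeR) and Fos by 0.13 (adjusted p = 0.0107, edgeR) on the log2 scale. Myc fell by 0.09 (adjusted p = 0.031, edgeR), while Fosl1 (adjusted p = 0.629, edgeR) and Ier3 (adjusted p = 0.0563, edgeR) did not pass. The groups overlapped for Egr1, at 43.3 to 49.2 CPM with palmitate and 40.5 to 43.8 CPM with vehicle. They also overlapped for Myc, at 56.1 to 59.1 CPM with palmitate and 58.2 to 63.6 CPM with vehicle. Phlda1, of the same list, rose by 0.097 on the log2 scale (adjusted p = 4.95e-05, edgeR) without overlap.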
